A study of Mus musculus with 16 samples.

Results

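Long noncoding RNAs of muscle nuclei were read out of the gastrocnemius RNA-seq of 16 mice as 7 genes, Neat1, Malat1, Meg3, Rian, Mirg, H19 and Gas5. The members were chosen by gene name, each was found in the deposited counts by its Entrez identifier, and all 7 of 7 passed the filter on low counts, out of 24454 genes in the table and 15487 genes tested. None of them was chosen by a measured threshold.

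The mice were 3 months old and carried or lacked the HSALR transgene, a human skeletal actin gene with long CTG repeats that is driven by its own muscle promoter and is transcribed in skeletal muscle only. HSALR mice serve as a model of myotonic dystrophy type 1, in which the repeat RNA stays in the nucleus and sequesters MBNL splicing factors. They were homozygous and came from a single transgenic line, so that its insertion site and the repeat cannot be told apart. The controls, called FVB mice here, were of the FVB/N background strain of the line and lacked the transgene. Within each genotype, mice had received vehicle or AICAR, an activator of the energy sensor AMPK, at 500 mg/kg for 7 days. There were 3 FVB mice after vehicle, 3 FVB mice after AICAR, 5 HSALR mice after vehicle and 5 HSALR mice after AICAR. Counts of the human transgene were not analysed here. The values measure whole muscle, in which fewer cells of a type and less RNA per cell cannot be told apart.

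Long noncoding RNAs act as RNA, often in the nucleus where they are made. Neat1 is the scaffold around which proteins assemble into paraspeckles, bodies that hold back certain RNAs and proteins, and Malat1 is enriched in nuclear speckles, where splicing factors are stored. Meg3, Rian and Mirg are transcribed in the same direction from the maternal chromosome of the imprinted Dlk1-Dio3 region and carry small nucleolar RNAs and miRNAs in their introns and exons. H19 is an imprinted maternal transcript that is abundant in fetal and regenerating muscle and holds the hairpin of miR-675. Gas5 is the host of several small nucleolar RNAs and its spliced transcript is degraded when it is translated, through nonsense-mediated decay.

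In the RefSeq annotation of GRCm38.p6, the assembly that is also called mm10, Malat1 (Entrez 72289, chr19:5795690-5802672, minus strand) and Neat1 (Entrez 66961, chr19:5824708-5845480, minus strand) are neighbours with 22035 bases between them. Meg3 (Entrez 17263, chr12:109540996-109571729), Rian (Entrez 75745, chr12:109603945-109661716) and Mirg (Entrez 100040724, chr12:109734981-109749458) follow each other on the plus strand. Gaps of 32215 bases between Meg3 and Rian and of 73264 bases between Rian and Mirg separate them. H19 (Entrez 14955, chr7:142575530-142578146, minus strand) contains Mir675, and Gas5 (Entrez 14455, chr1:161034601-161038539, plus strand) overlaps Zbtb37 on the opposite strand. Part of Meg3 and of Rian lies opposite Rtl1. Whether reads were counted by strand is not given in the sources used here, so reads of these overlapping genes cannot be divided with certainty.

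Mature miRNAs lie inside 4 of the 7 genes on the same strand, 3 in Meg3, 6 in Rian, 19 in Mirg and 2 in H19. A selection is shown from Rian, Mirg and H19, the hosts that passed the test between genotypes after vehicle, to show what these transcripts carry. Those of Meg3, which did not pass, are not printed. The sequences are those of RefSeq, 5′ to 3′, with the seed (bases 2 to 8) in capitals.
miR-341-3p, in Rian (chr12:109611556-109611576): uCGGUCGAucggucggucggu
miR-370-3p, in Rian (chr12:109618305-109618326): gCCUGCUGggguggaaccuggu
miR-154-5p, in Mirg (chr12:109738438-109738459): uAGGUUAUccguguugccuucg
miR-377-3p, in Mirg (chr12:109740553-109740574): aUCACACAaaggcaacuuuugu
miR-409-3p, in Mirg (chr12:109743204-109743225): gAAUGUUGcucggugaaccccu
miR-410-3p, in Mirg (chr12:109743764-109743784): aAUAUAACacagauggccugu
miR-453, in Mirg (chr12:109735669-109735692): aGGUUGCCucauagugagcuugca
miR-496a-5p, in Mirg (chr12:109739132-109739152): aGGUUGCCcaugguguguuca
miR-675-5p, in H19 (chr7:142577112-142577133): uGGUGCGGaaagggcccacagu
miR-675-3p, in H19 (chr7:142577078-142577099): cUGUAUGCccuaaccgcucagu
Only miR-453 and miR-496a-5p share a seed among all the mature sequences inside the 7 genes. Libraries of polyadenylated RNA do not measure mature miRNAs, so these sequences identify what the hosts carry and no level belongs to them.

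Promoter windows, 250 bases before to 50 bases after an annotated start, were held by RefSeq for Malat1, Meg3, Rian, Mirg and Gas5. The windows of Meg3, Malat1 and Gas5 are printed on the transcript strand as examples of different sets of matches. Capitals mark each match, on either strand, to TGACGTCA (the palindrome bound by CREB family proteins), TATAAA (the TATA box), CCAAT (bound by the factor NF-Y) or GGGCGG (the box bound by Sp1).
Meg3, at its first annotated start (GRCm38.p6, chr12:109540746-109541045, plus strand): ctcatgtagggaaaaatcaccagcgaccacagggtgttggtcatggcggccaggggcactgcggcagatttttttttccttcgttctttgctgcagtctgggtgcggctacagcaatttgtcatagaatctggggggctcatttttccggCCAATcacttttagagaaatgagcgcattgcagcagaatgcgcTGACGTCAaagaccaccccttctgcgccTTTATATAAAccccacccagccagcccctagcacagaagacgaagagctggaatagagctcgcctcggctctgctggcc
Malat1 (GRCm38.p6, chr19:5802623-5802922, minus strand): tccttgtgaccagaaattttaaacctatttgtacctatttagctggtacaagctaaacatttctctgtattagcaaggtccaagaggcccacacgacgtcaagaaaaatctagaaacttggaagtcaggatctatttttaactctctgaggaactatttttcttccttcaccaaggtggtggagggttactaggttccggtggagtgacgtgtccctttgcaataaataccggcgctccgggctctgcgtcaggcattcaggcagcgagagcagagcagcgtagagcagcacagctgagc
Gas5, at its second annotated start (GRCm38.p6, chr1:161034916-161035215, plus strand): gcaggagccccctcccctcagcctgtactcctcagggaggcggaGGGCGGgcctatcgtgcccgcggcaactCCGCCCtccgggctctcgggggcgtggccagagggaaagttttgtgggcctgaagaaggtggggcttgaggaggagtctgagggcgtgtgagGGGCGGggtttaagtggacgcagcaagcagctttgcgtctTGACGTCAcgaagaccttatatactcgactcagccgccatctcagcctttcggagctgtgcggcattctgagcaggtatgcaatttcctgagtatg
The first Meg3 window held TGACGTCA 57 bases before the start, a pair of overlapping TATAAA matches beginning at -29 (on the opposite strand) and -25, and CCAAT at -100, while the second, at chr12:109545148-109545447, held none of the 4 motifs. The second Gas5 window held TGACGTCA 46 bases before the start and GGGCGG 3 times, and the first, at chr1:161034351-161034650, held GGGCGG 5 times and no TGACGTCA. Of the other windows, that of Mirg held CCAAT once, and those of Malat1 and Rian held none of the 4. Over all 32851 promoter windows of the same length, 1.79% held TGACGTCA, 13.6% TATAAA, 37.4% CCAAT and 35.7% GGGCGG. A match is a description of letters, and binding was not measured.

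Library totals on genes lay between 64890014 and 81987726 reads, so that counting error was small for all members except Mirg, which had between 5 and 79 reads per mouse. Normalized CPM denotes a read count scaled to a common library total after TMM correction. Acta1, the skeletal actin of muscle, had between 24411 and 37705 normalized CPM. Krt14, a keratin of epidermis, was above 1 normalized CPM in 6 libraries, namely 1 FVB vehicle (S450), 1 FVB AICAR (S448) and 4 HSALR vehicle mice (S452, S453, S458 and S459), and in no HSALR AICAR mouse. The summed level of 8 epidermal markers ranged from 0.256 to 92.3 normalized CPM in FVB vehicle, 0.243 to 104 in FVB AICAR, 0.612 to 187 in HSALR vehicle and 0.242 to 0.371 in HSALR AICAR mice, where 2 of the 8 were at 0 in every mouse. The sum of 7 endothelial markers was lower in HSALR mice (217 to 278 normalized CPM after vehicle, 270 to 291 after AICAR) than in FVB mice (333 to 359 after vehicle, 347 to 368 after AICAR), and all 7 of these markers passed the test as lower after vehicle. A fit of the other 10 libraries, called Krt14-low here, kept 2 mice of each FVB group, 1 HSALR vehicle mouse (S451, taken to vary like the other groups) and all 5 HSALR AICAR mice. Over all 15584 genes it called 5.8% between genotypes after vehicle, 15.5% after AICAR (2410 genes), 5.77% with AICAR in HSALR mice and 4.47% with AICAR in FVB mice. In it edgeR called none of the 7 endothelial markers after vehicle (5 at an unadjusted p under 0.05) and 3 as lower after AICAR, as with all 16 libraries. Values of this fit are given beside results of the members and lists, and the part of endothelial cells was not tested.

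Per length of the deposited gene model, H19 was the most abundant of the 7 RNAs in every group. In FVB vehicle mice the mean RPKM (normalized CPM per kilobase of gene length) was 472 ± 68.4 for H19 (SD, n = 3), 96.5 ± 17.5 for Malat1, 32.0 ± 1.20 for Neat1, 5.70 ± 0.622 for Gas5, 1.65 ± 0.420 for Rian, 0.494 ± 0.137 for Meg3 and 0.0898 ± 0.0239 for Mirg. In this group no neighbours in the order overlapped between mice. The Neat1 value uses the full length of its gene model, although poly(A) selection can miss the long isoform. The place of Neat1 in the order therefore depends on that length. In HSALR vehicle mice Rian stood above Gas5, with 9.49 ± 2.83 RPKM (SD, n = 5) against 4.83 ± 0.265, and the ranges of Meg3 (0.823 ± 0.240) and Mirg (0.548 ± 0.209) overlapped. The same order held by the mean in HSALR AICAR mice, where Rian and Gas5 overlapped as well. Together the 7 genes took between 0.157% and 0.405% of the counts of a library.

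**Figure D1:**
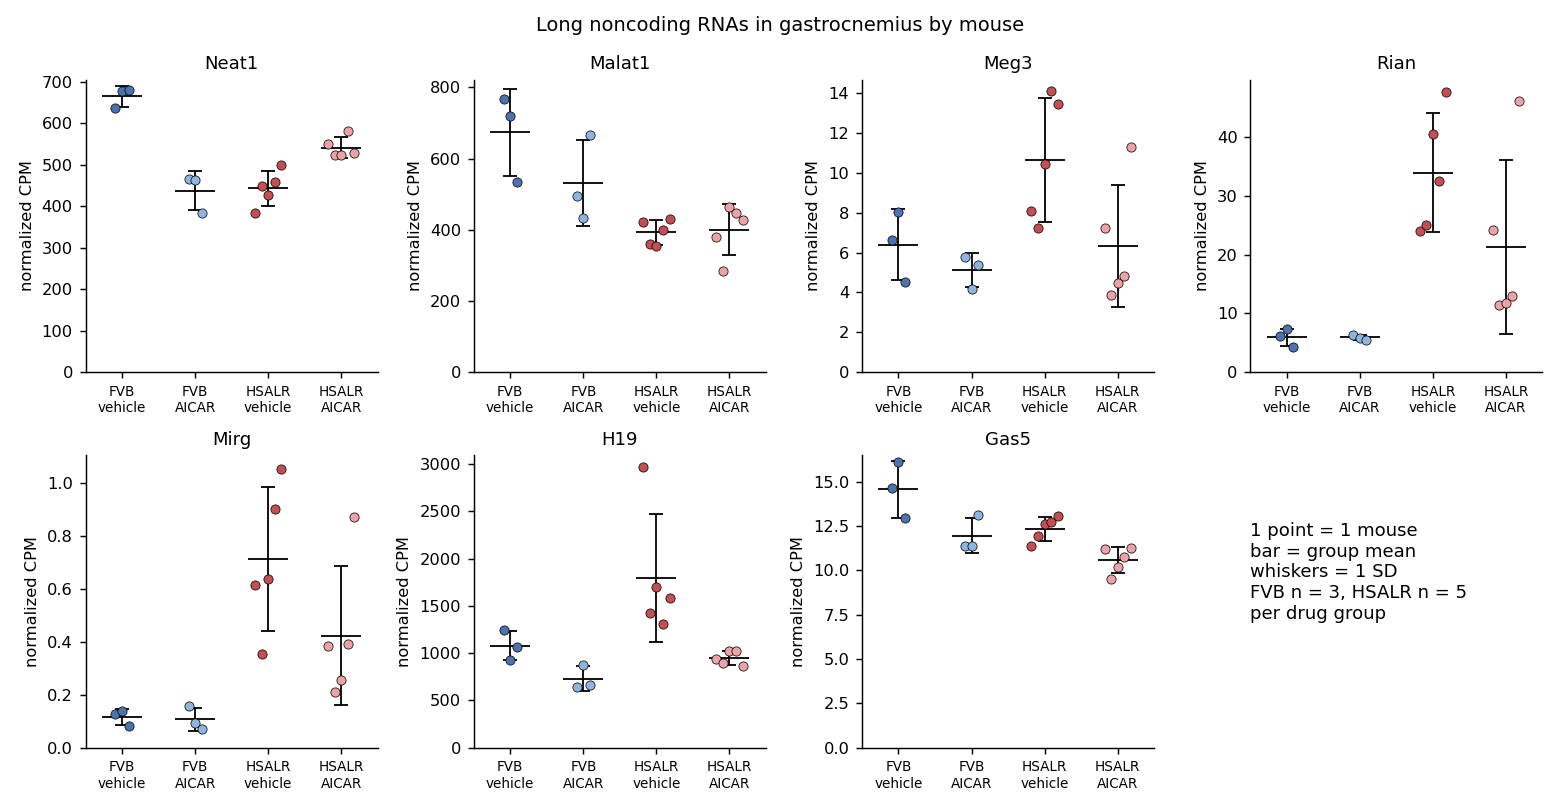
Level of each RNA (vertical axis, normalized CPM) in each of the 16 mice, by group, with 1 point per mouse, a bar at the group mean and whiskers of 1 SD. Rian and Mirg sit higher in all HSALR mice than in all FVB mice, while Neat1 moves in opposite directions after AICAR in the 2 genotypes, from a mean of 664 to 437 in FVB and from 443 to 541 in HSALR mice.

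The comparison of HSALR with FVB muscle after vehicle asked how the transcriptome of the model muscle differs from that of the background strain. Of the 7 members 6 passed the test, 3 higher (Rian, Mirg and H19) and 3 lower (Malat1, Neat1 and Gas5), where 26.9% of all tested genes passed (4169 of 15487, quasi-likelihood test of edgeR with p-values adjusted after Benjamini and Hochberg). After AICAR 3 members were higher in HSALR muscle, Rian, Mirg and Neat1, with 21.8% of all genes called. AICAR itself changed 3 members in HSALR mice, with Neat1 higher and H19 and Gas5 lower (26.6% of all genes called), and only Neat1, which was lower, in FVB mice (13.2% of all genes called). The AICAR effects of the 2 genotypes differed for Neat1 alone among the 7 members, with 0.691% of all genes called (107 of 15487). The other 6 had adjusted p-values from 0.478 to 0.847 for this difference. The comparisons share groups with each other, so the calls of a member in different comparisons are not independent. Of the 7 members 2 passed between the genotypes after vehicle in the Krt14-low libraries, Neat1 and H19, where 5.8% of all genes passed (904 of 15584).

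**Figure D2:**
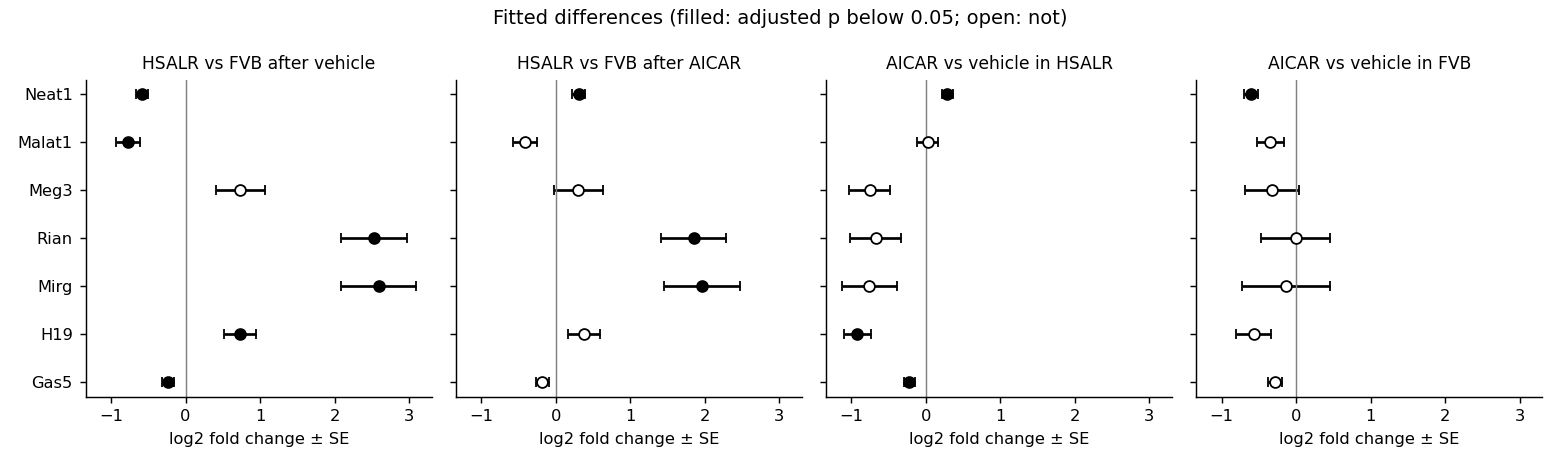
Fitted log2 fold change (horizontal axis) with its standard error for each RNA (vertical axis) in the 4 comparisons of 2 groups. Filled points passed an adjusted p of 0.05 and open points did not. Rian and Mirg lie farthest to the right in both comparisons of genotypes (2.53 and 2.59 after vehicle), and Neat1 lies left of 0 for AICAR in FVB mice (-0.60) and right of 0 in HSALR mice (0.29).

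Neat1, the RNA scaffold of paraspeckles, was lower in HSALR than in FVB muscle after vehicle and higher after AICAR. Poly(A) selection can miss the long Neat1 isoform, and isoforms were not measured apart, so paraspeckles cannot be read from these counts. In the FVB vehicle mice Neat1 had 636, 676 and 681 normalized CPM, and in the FVB AICAR mice 466, 463.4 and 382. The HSALR vehicle mice had 383, 448.1, 427, 458.6 and 499, and the HSALR AICAR mice 550.4, 522, 524, 582 and 528. All FVB vehicle mice were above every other mouse, the HSALR AICAR mice formed the next level, and FVB AICAR and HSALR vehicle mice shared the lowest range.

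The log2 fold change of Neat1 between HSALR and FVB mice was -0.58 after vehicle (standard error 0.08, adjusted p = 9.64e-05) and 0.31 after AICAR (standard error 0.08, adjusted p = 0.016), each without overlap between the groups. AICAR lowered Neat1 by 0.60 on the log2 scale in FVB mice, with a fold of 0.658 (standard error 0.09, adjusted p = 0.000842). In HSALR mice it raised Neat1 by 0.29 on the same scale, with a fold of 1.22 (standard error 0.07, adjusted p = 0.00794), and again no mice of the 2 groups overlapped. The difference of these AICAR effects was 0.89 (standard error 0.12, adjusted p = 0.00552), and by its p-value Neat1 ranked 3 among the 15487 genes. Scaled by library size alone, the rise in HSALR mice was 0.21 with an adjusted p of 0.0573, and without FVB AICAR mouse S449 the genotype difference after AICAR was 0.22 with an adjusted p of 0.084. The Krt14-low libraries gave -0.78 between genotypes after vehicle (adjusted p = 0.00819), 0.35 after AICAR (adjusted p = 0.0248), -0.64 with AICAR in FVB mice (adjusted p = 0.0122) and 0.495 in HSALR mice (adjusted p = 0.0399), all of which passed, while the difference of AICAR effects was 1.13 with an adjusted p of 0.0869.

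Of 25 tested genes for proteins that build or regulate paraspeckles, 1 was higher and 1 lower in HSALR muscle after vehicle, where 26.9% of all genes were called (median log2 fold change 0.04, against 0.01 over all genes). After AICAR 3 were higher and none lower, where 21.8% of all genes were called (median 0.06, against 0.00 over all genes). Among the Krt14-low libraries edgeR called none of the 25 after vehicle (3 at an unadjusted p under 0.05) and 3 as higher after AICAR, where that fit called 15.5% of all genes. Zc3h6, a zinc finger protein of this list, had 14.0 ± 2.11 normalized CPM in FVB vehicle (SD, n = 3), 6.68 ± 0.445 in FVB AICAR, 8.83 ± 3.15 in HSALR vehicle (SD, n = 5) and 12.6 ± 2.66 in HSALR AICAR mice. It was lower in HSALR muscle after vehicle (log2 fold change -0.67, adjusted p = 0.0396) and higher after AICAR (0.92, adjusted p = 0.0127), and its AICAR effects differed between the genotypes (difference 1.59, adjusted p = 0.0381). The same values from the Krt14-low libraries were -0.87 (adjusted p = 0.127), 0.87 (adjusted p = 0.0207) and 1.75 (adjusted p = 0.175). In FVB mice AICAR lowered Zc3h6 by 1.07 on the log2 scale (adjusted p = 0.0139). Hnrnpa1, a splicing repressor, was higher in HSALR muscle in both comparisons (0.31, adjusted p = 0.0211, and 0.44, adjusted p = 0.004). Nono, a core protein of paraspeckles, was higher after AICAR (0.20, adjusted p = 0.0195). With AICAR 3 of the 25 were called in HSALR and 2 in FVB mice, where 26.6% and 13.2% of all genes were called. Dazap1, an RNA-binding protein, rose with AICAR in HSALR (0.35, adjusted p = 8.49e-05) and FVB mice (0.26, adjusted p = 0.0111). Its rise in FVB mice did not pass in the Krt14-low libraries. In HSALR mice the RNA-binding proteins Ewsr1 (0.21, adjusted p = 0.0225) and Hnrnph3 (-0.24, adjusted p = 0.026) were also called, and neither passed in the Krt14-low libraries (adjusted p = 0.156 and 0.17).

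Near Neat1 and Malat1 on chromosome 19, Ltbp3, which binds latent TGF-beta, was lower in HSALR muscle after vehicle (log2 fold change -0.20, adjusted p = 0.0338) and fell with AICAR in FVB mice (-0.24, adjusted p = 0.0439). Neither call held in the Krt14-low libraries (-0.14, adjusted p = 0.581, and -0.21, adjusted p = 0.248).

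Malat1, the abundant RNA of nuclear speckles, was lower in HSALR muscle after vehicle. It had 767, 719 and 535 normalized CPM in the FVB vehicle mice, 495, 432 and 666 in the FVB AICAR mice, 422, 359, 354, 400.0 and 431 in the HSALR vehicle mice and 379, 285, 465, 446.7 and 426 in the HSALR AICAR mice. Every HSALR vehicle mouse was below every FVB vehicle mouse, whereas the groups overlapped after AICAR. The log2 fold change was -0.78 after vehicle (standard error 0.16, adjusted p = 0.00232), a fold of 0.584. After AICAR it was -0.41 (standard error 0.16, adjusted p = 0.0839), which did not pass, although DESeq2 gave an adjusted p of 0.048 (-0.42) and a fit with the epidermal markers as a covariate 0.0196 (-0.52). AICAR effects on Malat1 were -0.34 in FVB mice (adjusted p = 0.234) and 0.03 in HSALR mice (adjusted p = 0.914), and neither passed the test. In the Krt14-low libraries the genotype value was -0.82 after vehicle (adjusted p = 0.117) and -0.54 after AICAR (adjusted p = 0.0657). The endothelial markers were lower in the same HSALR mice, and their part in the Malat1 and Neat1 differences was not tested.

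The balance between the 2 neighbours was compared as the Malat1 share of Malat1 plus Neat1 counts within a mouse, which does not depend on how libraries are scaled. The share was 54.7%, 51.5% and 44.0% in FVB vehicle mice and 51.5%, 48.3% and 63.5% in FVB AICAR mice. It was 52.4%, 44.5%, 45.3%, 46.6% and 46.4% in HSALR vehicle mice and 40.8%, 35.3%, 47.0%, 43.4% and 44.7% in HSALR AICAR mice. After AICAR every HSALR mouse was below every FVB mouse, with a mean of 42.3% against 54.4% (exact permutation test, two-sided, p = 0.0179, which is the lowest value that 5 mice against 3 allow), and the adjusted p over the 16 share tests was 0.0573. In the other 3 comparisons the groups overlapped and the adjusted p lay between 0.16 and 0.8, where 3 mice against 3 cannot go below an exact p of 0.1.

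Among 18 proteins of nuclear speckles, 1 was higher and 2 lower in HSALR muscle after vehicle (median log2 fold change -0.04, against 0.01 over all genes, with 26.9% of all genes called), and none was called after AICAR (1 at an unadjusted p under 0.05). With the Krt14-low libraries edgeR called none of the 18 after vehicle (1 at an unadjusted p under 0.05), after AICAR (5) or with AICAR in HSALR mice (3). Prpf8, a core protein of the spliceosome, was lower (log2 fold change -0.41, adjusted p = 0.00305), as was Son, a speckle scaffold (-0.34, adjusted p = 0.0177), while U2af1, which recognises the end of introns, was higher (0.28, adjusted p = 0.00888). Of the 18, 2 were called with AICAR in HSALR mice, where 26.6% of all genes were called. There AICAR lowered Ddx39b, an RNA helicase of splicing and export (-0.43, adjusted p = 0.000256), and raised Sf3b1, a subunit of the U2 particle (0.32, adjusted p = 0.00362).

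**Figure D3:**
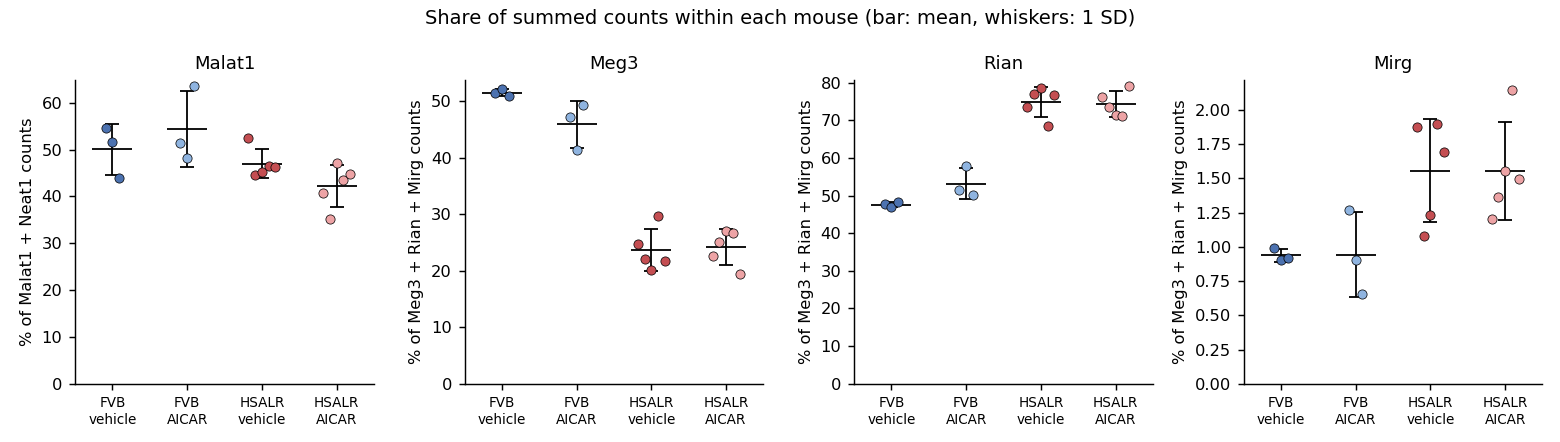
Share of summed counts (vertical axis, percent) of Malat1 within Malat1 plus Neat1, and of Meg3, Rian and Mirg within their sum, with 1 point per mouse, a bar at the group mean and whiskers of 1 SD. In the 3 panels of the imprinted cluster, all HSALR mice lie below all FVB mice for Meg3 and above them for Rian, with a mean Rian share of 74.8% against 47.6% after vehicle.

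Rian and Mirg were the members with the largest differences between genotypes. Rian, which carries small nucleolar RNAs, had 6.13, 7.26 and 4.28 normalized CPM in FVB vehicle mice and 6.33, 5.86 and 5.47 in FVB AICAR mice. It had 24.0, 25.1, 40.6, 32.5 and 47.6 in HSALR vehicle mice and 24.2, 11.4, 11.8, 13.0 and 46.2 in HSALR AICAR mice. Every HSALR mouse was above every FVB mouse, and the HSALR AICAR mice split into 3 low mice, S454 at an intermediate level and S463 among the highest of all. The log2 fold change between genotypes was 2.53 after vehicle (standard error 0.45, adjusted p = 0.000697), a fold of 5.76, and 1.85 after AICAR (standard error 0.43, adjusted p = 0.00711), a fold of 3.61. In the Krt14-low libraries the values were 1.84 (adjusted p = 0.187) and 1.85 (adjusted p = 0.0547).

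Mirg, which holds 10 miRNA hairpins as annotated here, was counted with few reads. FVB vehicle mice had 9, 11 and 6 reads and FVB AICAR mice 11, 7 and 5. HSALR vehicle mice had 44, 26, 43, 74 and 79 reads and HSALR AICAR mice 28, 17, 18, 30 and 57. No HSALR mouse fell into the range of the FVB mice, and S463 again had the most reads of its group. The log2 fold change was 2.59 after vehicle (standard error 0.50, adjusted p = 0.00147) and 1.96 after AICAR (standard error 0.51, adjusted p = 0.0128). In the Krt14-low libraries it was 2.17 (adjusted p = 0.15) and 1.86 (adjusted p = 0.0764), and after AICAR the call also ended without FVB AICAR mouse S448 (1.86, adjusted p = 0.0536) or S449 (1.75, adjusted p = 0.0573).

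Meg3, the first gene of the cluster, did not pass between genotypes. It had 6.62, 8.06 and 4.52 normalized CPM in FVB vehicle, 5.80, 4.19 and 5.39 in FVB AICAR, 8.07, 7.22, 10.4, 14.1 and 13.5 in HSALR vehicle and 7.21, 3.87, 4.45, 4.84 and 11.3 in HSALR AICAR mice. The groups overlapped in all 4 comparisons of 2 groups. Between genotypes the log2 fold change was 0.74 after vehicle (standard error 0.33, adjusted p = 0.109) and 0.30 after AICAR (standard error 0.33, adjusted p = 0.537). With AICAR in HSALR mice it was -0.75 (standard error 0.28, adjusted p = 0.0565), close to the values of Rian (-0.67, adjusted p = 0.162) and Mirg (-0.76, adjusted p = 0.146), and none of the 3 passed. The AICAR values from the Krt14-low libraries were -0.35 for Meg3 (adjusted p = 0.713), -0.18 for Rian (adjusted p = 0.91) and -0.55 for Mirg (adjusted p = 0.668), and the genotype value of Meg3 after vehicle was 0.13 (adjusted p = 0.925) and after AICAR 0.18 (adjusted p = 0.773). Without mouse S463 all 3 passed with AICAR, at -1.07 for Meg3 (adjusted p = 0.00601), -1.17 for Rian (adjusted p = 0.00484) and -1.20 for Mirg (adjusted p = 0.0185). Meg3 also passed without HSALR vehicle mouse S452 (-0.86, adjusted p = 0.0389), with DESeq2 (-0.75, adjusted p = 0.0252), with limma voom (-0.85, adjusted p = 0.0284) and after scaling by library size (-0.83, adjusted p = 0.033).

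The 3 transcripts varied together between mice but in different proportions in the 2 genotypes. Across the 16 mice the Pearson r of log2 levels was 0.783 for Meg3 and Rian, 0.845 for Meg3 and Mirg and 0.941 for Rian and Mirg. After the mean of each group was removed it was 0.903, 0.881 and 0.818, as a description of mice that share their groups and libraries. Within the sum of the 3, Meg3 took 51.5% ± 0.620 of the counts in FVB vehicle (SD, n = 3) and 45.9% ± 4.15 in FVB AICAR mice, but 23.7% ± 3.76 in HSALR vehicle (SD, n = 5) and 24.1% ± 3.18 in HSALR AICAR mice. Rian took 47.6% ± 0.610, 53.1% ± 4.12, 74.8% ± 4.04 and 74.3% ± 3.36 in the same order, and Mirg between 0.655% and 2.15% in single mice. For Meg3 and Rian the genotypes did not overlap after either treatment (exact permutation test, two-sided, p = 0.0179 each, the lowest value possible, adjusted p = 0.0573 over the 16 share tests). AICAR moved the mean Meg3 share of HSALR mice by 0.473 percentage points (exact p = 0.833), an amount smaller than the spread between mice. Among FVB mice every AICAR mouse had a lower Meg3 share than every vehicle mouse, with means of 45.9% against 51.5%. The exact p was 0.1, the lowest that 3 mice against 3 allow.

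**Figure D4:**
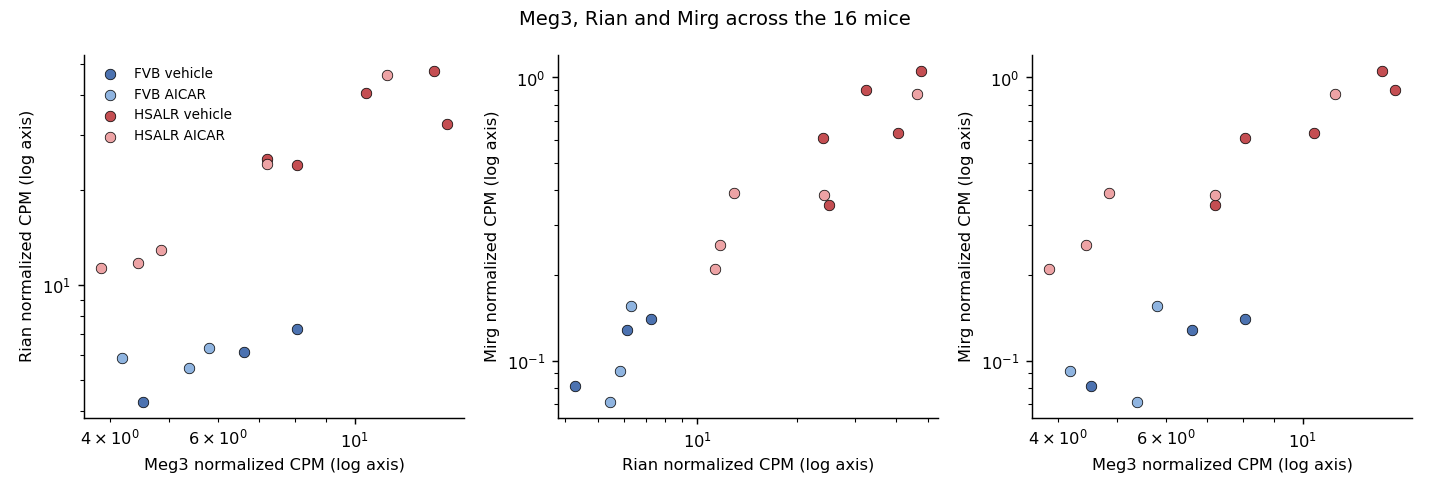
Levels of Meg3, Rian and Mirg plotted against each other for the 16 mice, in normalized CPM on log axes, with 1 point per mouse coloured by group. In the panels with Meg3 on the horizontal axis, FVB and HSALR mice of like Meg3 level form separate bands, the HSALR mice having 11.4 to 47.6 normalized CPM of Rian against 4.28 to 7.26 in the FVB mice.

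Other rows of the table between the start of Meg3 and the end of Mirg had almost no reads. Of 60 miRNA hairpins there, 43 had no read in any of the 16 libraries, and the other 17 summed to 165 reads over all libraries, of which 104 belonged to Mir1906-1 inside Meg3. The 7 small nucleolar RNAs in the table summed to 28 reads. Rtl1, the paternally expressed gene on the opposite strand, had 17 reads over the 16 libraries, against 22670 for Rian.

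Of 7 tested genes of the Dlk1-Dio3 list, Rian and Mirg were higher in HSALR muscle after vehicle and after AICAR, and none was lower. Over all genes 26.9% and 21.8% were called, so the 2 of 7 lay near these shares. The median log2 fold changes were 0.63 and 0.38 (0.01 and 0.00 over all genes). The list contains the 3 members. From the Krt14-low libraries edgeR called none of the 7 in either comparison (3 and 2 at an unadjusted p under 0.05), with medians of 0.63 and 0.42. Dlk1, the paternal gene at the other end of the region and a Notch-like inhibitor of differentiation, had 0.982, 1.43 and 0.747 normalized CPM in FVB vehicle and 4.08, 5.82 and 11.2 in FVB AICAR mice. It had 0.292, 0.394, 0.489, 0.987 and 0.653 in HSALR vehicle and 9.72, 6.26, 6.97, 6.27 and 12.7 in HSALR AICAR mice. Every mouse after AICAR was above every mouse after vehicle, with log2 fold changes of 2.74 in FVB (standard error 0.44, adjusted p = 0.00114) and 3.88 in HSALR mice (standard error 0.36, adjusted p = 3.8e-06). Both passed in the Krt14-low libraries (2.65, adjusted p = 0.0241, and 4.83, adjusted p = 0.0121). AICAR changed Dlk1 in both genotypes, where Meg3, Rian and Mirg did not pass the test, and Dlk1 did not pass between the genotypes (adjusted p = 0.124 after vehicle and 0.651 after AICAR).

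H19, the most abundant member per length, was higher in HSALR than in FVB muscle after vehicle and fell with AICAR in HSALR mice. FVB vehicle mice had 1243, 932 and 1062 normalized CPM and FVB AICAR mice 643, 879 and 663. HSALR vehicle mice had 2971, 1420.0, 1698, 1308 and 1579 and HSALR AICAR mice 942, 893, 1022, 1024 and 862. Mouse S451 stood far above the other HSALR vehicle mice, which themselves lay above all FVB vehicle mice and above all mice after AICAR.

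The log2 fold change of H19 between genotypes after vehicle was 0.73 (standard error 0.22, adjusted p = 0.0199), a fold of 1.66. It no longer passed without FVB vehicle mouse S446 (0.64, adjusted p = 0.0846) or S450 (0.72, adjusted p = 0.061) or in a fit of the 2 groups alone (adjusted p = 0.0727), while it was 0.47 without mouse S451 (adjusted p = 0.0163) and 1.44 in the Krt14-low libraries (adjusted p = 0.00107), where S451 was the one HSALR vehicle mouse left. AICAR lowered H19 in HSALR mice by 0.92 on the log2 scale (standard error 0.18, adjusted p = 0.002), a fold of 0.528. The call held in all 26 alternatives tried, with values from -1.65 in the Krt14-low libraries to -0.66 without S451. In FVB mice every AICAR mouse was below every vehicle mouse as well, with a log2 fold change of -0.57 (standard error 0.24, adjusted p = 0.125), which passed without HSALR vehicle mouse S451, whose spread entered the fit (-0.57, adjusted p = 0.0146), and in the Krt14-low libraries, which hold S451 (-0.75, adjusted p = 0.0205). The difference of the AICAR effects of the 2 genotypes did not pass (-0.35, standard error 0.30, adjusted p = 0.616). Its size rested on S451, being -0.087 without that mouse (adjusted p = 0.861) and -0.90 in the Krt14-low libraries (standard error 0.20, adjusted p = 0.197), where S451 is the one HSALR vehicle mouse. After AICAR H19 was 0.38 higher in HSALR mice on the log2 scale (adjusted p = 0.215), and it passed without S451 (0.38, adjusted p = 0.0419), in a fit of the 2 groups alone (0.38, adjusted p = 0.0434) and in the Krt14-low libraries (0.54, adjusted p = 0.0153).

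Markers of satellite cells and fibroblasts, the resident stem and connective tissue cells of muscle, were read in the same mice. Of 6 satellite cell markers, 2 were higher and none lower in HSALR muscle after vehicle, where 26.9% of all genes were called. After AICAR, where H19 did not pass, 2 were also higher and none lower (5 of the 6 at an unadjusted p under 0.05), with 21.8% of all genes called. With AICAR 1 was lower in HSALR mice and 1 in FVB mice (26.6% and 13.2% of all genes called). In both it was Pax7, named here after its values were seen (log2 fold change 1.03 between genotypes after vehicle, and -0.70 with AICAR in HSALR mice, against 0.85 and -0.51 in the Krt14-low libraries, where neither passed). The sum of the 6 ranged from 44.1 to 57.6 normalized CPM in FVB vehicle, 43.2 to 73.4 in FVB AICAR, 52.2 to 74.3 in HSALR vehicle and 44.4 to 78.4 in HSALR AICAR mice. Of 7 fibroblast markers edgeR called none between genotypes after vehicle or after AICAR (1 at an unadjusted p under 0.05 in each), and 3 were lower with AICAR in HSALR mice, where the sum was 1076 to 1443 normalized CPM against 1356 to 1792 after vehicle. Of the 7, 1 was lower with AICAR in HSALR mice in the Krt14-low libraries. No marker of either list was at 0 in a whole group, and the part of these cells in the H19 difference was not tested.

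Mir675, the hairpin printed above as miR-675-5p and miR-675-3p, lies inside H19 and had between 1.70% and 2.26% of the H19 count in each mouse, where its length is 3.67% of the H19 gene model. Its row followed H19 over the 16 mice (Pearson r = 0.988), and since the hairpin is part of the H19 exon this row counts H19 reads and not the mature miRNA.

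Of 22 tested neighbours of H19 and other imprinted growth genes, H19 included, 4 were higher and 3 lower in HSALR muscle after vehicle (median log2 fold change -0.03, against 0.01 over all genes, of which 15.4% were higher and 11.5% lower), and with AICAR in HSALR mice none was higher and 6 were lower (median -0.13, against -0.02 over all genes, of which 13.7% were higher and 13% lower). H19 was the 1 gene higher and none was lower after vehicle in the Krt14-low libraries, and 4 were lower with AICAR in HSALR mice. Igf2, the paternally expressed growth factor next to H19, had 21.6, 23.0 and 24.6 normalized CPM in FVB vehicle and 22.4, 17.5, 19.3, 19.03 and 18.6 in HSALR vehicle mice, with 1 HSALR mouse inside the FVB range. It was lower in HSALR muscle after vehicle (log2 fold change -0.25, adjusted p = 0.0393) and after AICAR (-0.34, adjusted p = 0.0104), of which the second held in the Krt14-low libraries (-0.43, adjusted p = 0.00635) and the first was 0.0003 (adjusted p = 1). Nctc1, the noncoding gene downstream of H19 at a muscle enhancer, was higher in HSALR mice after AICAR (0.78, adjusted p = 0.00747), as was Igf2r, the receptor that clears Igf2 (0.41, adjusted p = 0.0364).

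Peg10 and Cdkn1c were the genes of this list that were, like H19, called as higher after vehicle and as lower with AICAR in HSALR mice. Peg10, a retrotransposon-derived imprinted gene, had 3.02, 3.05 and 2.70 normalized CPM in FVB vehicle, 6.46, 5.02, 5.77, 6.27 and 6.34 in HSALR vehicle and 2.14, 2.36, 3.22, 1.71 and 2.77 in HSALR AICAR mice. It was higher in HSALR muscle after vehicle (log2 fold change 1.03, adjusted p = 0.000296) and fell with AICAR in HSALR mice (-1.29, adjusted p = 1.5e-05). The Krt14-low libraries gave 1.08 (adjusted p = 0.0669) and -1.41 (adjusted p = 0.0157). Cdkn1c, a cell cycle inhibitor, was higher after vehicle (0.46, adjusted p = 0.000313), fell with AICAR in HSALR (-0.89, adjusted p = 3.29e-07) and FVB mice (-0.29, adjusted p = 0.0279), and its AICAR effects differed between the genotypes (difference -0.60, adjusted p = 0.0238). Of these calls, the fall in HSALR mice held in the Krt14-low libraries (-0.94, adjusted p = 0.00359), and the others had adjusted p-values of 0.0628, 0.188 and 0.295. Grb10, an adaptor that restrains insulin signalling, was lower in HSALR muscle after vehicle (-1.22, adjusted p = 8.14e-05) and after AICAR (-1.10, adjusted p = 0.000304), with -0.81 (adjusted p = 0.133) and -1.16 (adjusted p = 0.00324) in the Krt14-low libraries. Plagl1, an imprinted zinc finger factor, was also lower after vehicle (-0.57, adjusted p = 0.0332). Impact, an inhibitor of the kinase GCN2, rose with AICAR in FVB mice (2.14, adjusted p = 1.85e-05) and was lower in HSALR than in FVB mice after AICAR (-1.98, adjusted p = 1.91e-06). Its AICAR effects differed between the genotypes (difference -1.74, adjusted p = 0.00624), with -1.80 in the Krt14-low libraries (adjusted p = 0.172). Peg3, an imprinted zinc finger gene, fell with AICAR in FVB mice (-0.95, adjusted p = 0.0286), with -1.01 in the Krt14-low libraries (adjusted p = 0.0698).

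**Figure D5:**
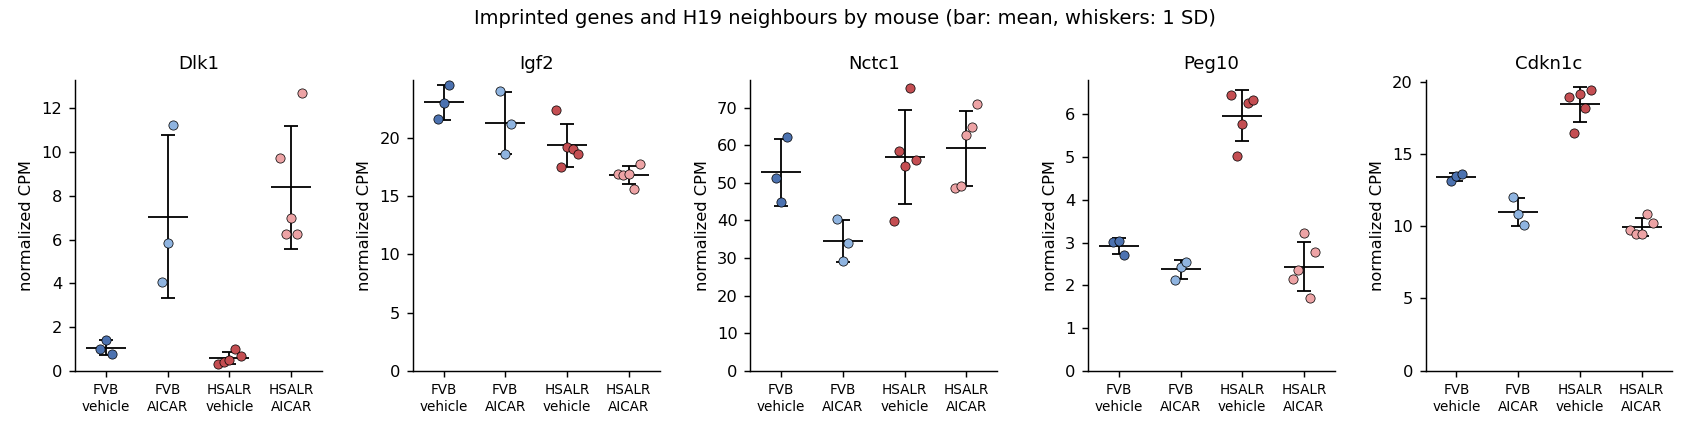
Levels (vertical axis, normalized CPM) of Dlk1, Igf2, Nctc1, Peg10 and Cdkn1c in each mouse by group, with 1 point per mouse, a bar at the group mean and whiskers of 1 SD. Dlk1 is higher after AICAR in both genotypes (up to 12.7), Peg10 is highest in HSALR vehicle mice (5.02 to 6.46), and Igf2 spans a narrow range in all groups (15.6 to 24.6).

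Gas5 was slightly lower in HSALR muscle and after AICAR. It had 14.7, 16.1 and 12.9 normalized CPM in FVB vehicle, 11.4, 11.4 and 13.1 in FVB AICAR, 11.4, 11.9, 12.6, 12.7 and 13.0 in HSALR vehicle and 11.2, 9.51, 10.2, 10.8 and 11.2 in HSALR AICAR mice. After vehicle FVB mouse S450 was below HSALR mouse S459, while each HSALR AICAR mouse was below each HSALR vehicle mouse. The log2 fold change was -0.24 between genotypes after vehicle (standard error 0.08, adjusted p = 0.0414) and -0.22 with AICAR in HSALR mice (standard error 0.07, adjusted p = 0.0336). With AICAR in FVB mice it was -0.28 (standard error 0.09, adjusted p = 0.055). These small differences lay near the threshold. The first call ended in 10 of 26 alternatives, among them leaving out S445, S446, S451, S452, S453 or S462 (adjusted p from 0.0517 to 0.22), and the second in 8 of 26, among them leaving out S453, S455, S458, S459, S460 or S462 (adjusted p from 0.0534 to 0.0841). The third passed in 6 of 26, among them leaving out S449, S450 or S455 (adjusted p from 0.0282 to 0.049). In the Krt14-low libraries the first value was -0.44 (adjusted p = 0.124) and the second -0.11 (adjusted p = 0.691). After AICAR the genotypes did not overlap, by a small margin, and the log2 fold change was -0.18 (adjusted p = 0.137).

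Gas5 differed in direction from the other hosts of small nucleolar RNAs that were called between genotypes. Of 20 tested, Gas5 and Rian included, 6 were higher and 1, Gas5, was lower in HSALR muscle after vehicle (median log2 fold change 0.22, against 0.01 over all genes, of which 15.4% were higher and 11.5% lower), and 7 were higher and none lower after AICAR (median 0.30, against 0.00 over all genes, of which 12.2% were higher and 9.64% lower). Snhg4, the host of a small nucleolar RNA pair, had 2.39, 2.10 and 1.63 normalized CPM in FVB vehicle and 3.799, 4.76, 4.40, 4.42 and 4.50 in HSALR vehicle mice, without overlap (log2 fold change 1.10, adjusted p = 1.8e-05), and the value was 1.43 after AICAR (adjusted p = 2.87e-06). Snhg3 was higher by 0.81 after vehicle (adjusted p = 0.00131) and by 1.18 after AICAR (adjusted p = 0.000111). With AICAR in HSALR mice 6 of the 20 were called, Gas5 included, where 26.6% of all genes were called. There Snhg5 fell (-0.58, adjusted p = 0.00461) as did Snhg18 (-0.27, adjusted p = 0.0335), while Snhg7 (0.56, adjusted p = 0.00385), Snhg3 (0.43, adjusted p = 0.0235) and Snhg4 (0.41, adjusted p = 0.00929) rose. In FVB mice 1 of the 20 was called with AICAR, Snhg5 (-0.60, adjusted p = 0.0329), where 13.2% of all genes were called. Over the Krt14-low libraries edgeR called 0 hosts as higher after vehicle (5 of the 20 at an unadjusted p under 0.05 in either direction) and 4 after AICAR. With AICAR it called 1 host in HSALR mice, Snhg3 (0.83, adjusted p = 0.0415), and none in FVB mice (3 at an unadjusted p under 0.05). Snhg4 was then 0.75 higher after vehicle (adjusted p = 0.0502) and Snhg3 0.40 (adjusted p = 0.336).

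Nonsense-mediated decay is the pathway that degrades spliced Gas5. Of 14 of its factors tested, 2 were higher and 2 lower in HSALR muscle after vehicle, near the 26.9% called over all genes (median log2 fold change 0.02, against 0.01 over all genes), and 2 were higher and 4 lower after AICAR, where 21.8% of all genes were called. Within the Krt14-low libraries edgeR called none after vehicle (1 at an unadjusted p under 0.05), 1 as higher and 1 as lower after AICAR, and none with AICAR in HSALR mice (0 at an unadjusted p under 0.05). Rbm8a, of the exon junction complex, was higher in both (0.29, adjusted p = 0.00172, and 0.27, adjusted p = 0.00387). Eif4a3, its helicase, was higher after vehicle (0.30, adjusted p = 0.000883) and fell with AICAR in HSALR mice (-0.18, adjusted p = 0.0109). It was the 1 factor of the 14 called there, where 26.6% of all genes were called. Upf2, an adaptor of the pathway, was lower after vehicle (-0.28, adjusted p = 0.00846) and after AICAR (-0.23, adjusted p = 0.0308), and Smg5, which takes part in the removal of phosphate from UPF1, was lower after AICAR (-0.36, adjusted p = 0.0058). Smg6, the endonuclease of the pathway, was lower after vehicle (-0.20, adjusted p = 0.0236). After AICAR Upf3a, an adaptor, was lower (-0.27, adjusted p = 0.0433) and Smg8, a regulator of the kinase Smg1, was higher (0.23, adjusted p = 0.0413). These last 3 did not pass in the Krt14-low libraries (adjusted p = 0.652, 0.0971 and 0.0571).

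Of 23 further long noncoding RNAs that were tested, 1 was higher and 5 lower in HSALR muscle after vehicle (median log2 fold change -0.23, against 0.01 over all genes, with 26.9% of all genes called), and 3 were higher and 3 lower after AICAR (median -0.18, against 0.00, with 21.8% called). Of 24 tested in the Krt14-low libraries 1, Peg13, was called after vehicle (-0.63, adjusted p = 0.0301), and 2 were higher and 3 lower after AICAR. Peg13, an imprinted RNA, had 51.9 ± 3.06 normalized CPM in FVB vehicle (SD, n = 3) and 33.3 ± 0.525 in HSALR vehicle mice (SD, n = 5), with a log2 fold change of -0.64 (adjusted p = 1.08e-05). Hotair, a trans-acting RNA of the Hox clusters, was lower as well (-0.72, adjusted p = 0.0254), as was Xist, the RNA that coats the inactive X chromosome (-0.47, adjusted p = 0.0324), which was read in all 16 mice at 94.4 to 225 normalized CPM. Pvt1, the neighbour of Myc, was higher (0.99, adjusted p = 0.00853). Of the 23, 3 were called with AICAR in HSALR mice and 4 in FVB mice, where 26.6% and 13.2% of all genes were called. With AICAR Oip5os1, also called Cyrano, rose in HSALR mice (0.65, adjusted p = 0.00126, against 0.41 and an adjusted p of 0.111 in the Krt14-low libraries) and Dleu2, the host of miR-15a and miR-16, fell (-0.80, adjusted p = 8.08e-05). Airn, the antisense RNA of the Igf2r locus, whose reads cannot be divided with certainty from those of Igf2r, fell with AICAR in FVB mice (-0.62, adjusted p = 0.00454), and its AICAR effects differed between the genotypes (difference 0.77, adjusted p = 0.0336). In the Krt14-low libraries these were -0.46 (adjusted p = 0.0674) and 0.48 (adjusted p = 0.449). Like Neat1, it was higher in HSALR than in FVB mice after AICAR (0.99, adjusted p = 3.05e-05), as was Norad, a binder of Pumilio proteins (0.22, adjusted p = 0.0366), while Peg13 (-0.32, adjusted p = 0.00516) and Hotair (-0.75, adjusted p = 0.0255) were lower. With AICAR in FVB mice Pvt1 rose (0.96, adjusted p = 0.0304), and Dleu2 (-0.51, adjusted p = 0.0193) and Peg13 (-0.43, adjusted p = 0.00284) fell. Of these 6 values, that of Peg13 after AICAR passed in the Krt14-low libraries (-0.37, adjusted p = 0.0242), and the others had adjusted p-values from 0.0608 to 0.261.

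The tested genes with the most similar pattern over the 16 mice were found by Pearson r of log2(normalized CPM + 1) among about 13000 genes with a mean count of at least 50, as a description of samples that share groups and libraries. Neat1 was nearest to Marchf2 (0.867), Acbd4 (0.837) and Abcb1a (0.789), the lowest values among the members. Malat1 was nearest to Tnrc6a (0.944), a partner of Argonaute proteins, Prpf8 (0.921) and Rgp1 (0.917). Rian was nearest to Pemt (0.951), Ogdhl (0.949) and Slc13a4 (0.945), and Mirg to Rian (0.942), Gpr27 (0.917) and Slc13a4 (0.910). For Meg3 the nearest were Tmem232 (0.891), Srsf4 (0.883) and Mrpl54 (0.868), for H19 after Mir675 they were Lrrn2 (0.926) and Gldn (0.902), and for Gas5 they were 5830417I10Rik (0.945), Erdr1 (0.925) and Mmab (0.920).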

How the data were processed

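Gastrocnemius RNA of 16 mice was measured as poly(A)-selected, stranded RNA-seq. The authors aligned single-end reads to mm10 with STAR 2.5.2a, which reported 1 location for reads that map to several, and deposited raw counts per RefSeq gene of reads that start in an exon, without normalization. Whether the counting used strand is not given in the sources used here. Poly(A) selection can miss the long Neat1 isoform and the Malat1 end, which lack conventional tails. GEO labels gave the groups. Nothing in them names the cage or litter, so p-values measure the spread between these mice.

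The deposited counts were filtered (filterByExpr, minimum count 10), scaled by TMM and fitted with 1 mean per group over all 16 libraries by edgeR 4.0.16 in R 4.3.3 (glmQLFit and glmQLFTest), with Benjamini-Hochberg adjustment over 15487 genes and a threshold of 0.05. All adjusted p-values of single genes come from this fit unless another tool is named. Shares within a mouse were compared by exact permutation tests. DESeq2 1.42.0, limma 3.58.1, other scalings, filters and left-out mice were alternatives, and the scripts were tested on simulated data. The fit without libraries with Krt14 above 1 CPM was added for the gene lists after seeing the data.

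The members and gene lists were chosen with earlier results of these data known. All members were named in every comparison. From each list the called genes were named, up to 3 per direction by size of change with a mean count of at least 50, and for each member the 3 genes of highest Pearson r. Sequences and coordinates came from RefSeq (GRCm38.p6) and strands from GENCODE. Promoter windows were matched for 5 of the 7 members. Some results on genes near the members are not reported here.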

Additional observations from a re-analysis of the deposited data

Results flagged for a closer look

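In HSALR vehicle mice H19 was 2971 normalized CPM in mouse S451, far from the other 4 mice, and the Malat1 share of Malat1 plus Neat1 counts was 52.4% in the same mouse, also the highest of its group. In HSALR AICAR mice Mirg was 0.872 normalized CPM in mouse S463, apart from the other 4. The gap to the nearest mouse was 0.766, 0.735 and 0.728 of the whole range of the group in these 3 cases, above the critical value of Dixon's test. In all 22 groups of 5 mice were tested, of which chance alone marks about 1 in 20. The AICAR effect on Neat1 differed between the genotypes by 0.89 on the log2 scale, HSALR minus FVB, as a test of the difference itself.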

How the results depend on the processing

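Alternatives left 826 member values on the same side of the threshold with the same sign, ended 31 calls, added 20 and turned 20 values, none of them called. Leaving out the 6 libraries with Krt14 above 1 CPM gave 904 genes and 2 members called between genotypes after vehicle, 899 genes for AICAR in HSALR, and 697 genes and 2 members for AICAR in FVB mice. For the difference of AICAR effects it gave 0 genes and 0 members by edgeR, with 1485 genes at an unadjusted p under 0.05, and DESeq2 on all mice called 535. That setting also gave -0.078 for Malat1 with AICAR in HSALR mice, 0.048 for Meg3 and 0.018 for Rian in the difference, and -0.541 and 0.861 points for the Meg3 and Rian shares with AICAR in HSALR mice. It leaves fewer mice, 1 of them HSALR after vehicle. An epidermal covariate gave 2292 genes (AICAR in HSALR), 57 (difference) and -0.23 for Malat1 with AICAR in HSALR mice. Library size scaling gave -0.053 for this value, 2 members for AICAR in FVB mice, as did DESeq2 and a minimum of 10 counts in every library, and splits of 1327 higher and 2962 lower genes for AICAR in HSALR (2114 and 2007 with TMM) and 916 and 890 in FVB mice (1301 and 738). A fit of the 2 FVB groups alone called 1164 genes. Rian with AICAR in FVB mice was 0.0048 with RLE scaling, 0.0075 with DESeq2, 0.027 with limma voom and 0.0020 without a filter, and the Mirg share per kilobase there was -0.227 points.

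Leaving out 1 mouse at a time gave 2214 to 3790 genes and 1 to 4 members between genotypes after AICAR, 3146 to 4301 genes and 2 to 6 members for AICAR in HSALR, 1143 to 2186 genes and 1 to 2 members for AICAR in FVB mice, and 15 (without S448) to 371 (without S460) genes for the difference. Log2 values ranged from -0.0082 to 0.44 for Meg3 between genotypes after AICAR, -0.033 to 0.13 for Malat1 with AICAR in HSALR, -0.19 to 0.18 for Rian and -0.50 to 0.079 for Mirg with AICAR in FVB mice, and -0.016 to 0.14 for Gas5 in the difference. Shares in points ranged from -0.182 to 7.45 for Malat1 and -0.161 to 0.148 for Mirg with AICAR in FVB mice, and with AICAR in HSALR mice from -0.393 to 1.99 for Meg3, -2.07 to 0.477 for Rian and -0.152 to 0.0834 for Mirg. Unless the fewer mice show it, the cause was not tested. Mirg had no value with at least 10 counts in every library, and its 5 to 79 reads per mouse limit its precision. No paired analysis was possible because the groups share no replicate numbers.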
